A study of Mus musculus with 5 samples.

Results

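The D cyclins, their kinases and the inhibitors that restrain them were followed through 5 Tag-seq libraries of the mouse heart at E10.5 (embryonic day 10.5, Theiler stage 17). The set is 10 named genes out of the 13489 genes found in any library. It holds Ccnd1, Ccnd2 and Ccnd3 (cyclins D1 to D3), Cdk4 and Cdk6 (the cyclin D-dependent kinases), Cdkn1a, Cdkn1b and Cdkn1c (the Cip/Kip inhibitors p21, p27 and p57), Cdkn2c (the INK4 inhibitor p18) and Mycn (the transcription factor N-MYC). All 10 were found in the atrioventricular canal (AVC), the outflow tract (OFT) and the Twist1 null AVC, and 9 were found in each chamber library, the atria and the ventricles, where Cdkn2c was not listed.

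The 4 wild-type libraries were made from dissected AVC, OFT, atria and ventricles of C57BL/6 embryos. The fifth was made from the AVC of Twist1 Knockout embryos of the ICR strain, called Twist1 null AVC here, so that strain and genotype differ together and cannot be told apart. No agent was given to any group, each library pooled tissue of embryos from at least 3 litters, and each group has 1 library. The spread between embryos was therefore not measured. Intervals cover counting error only, and every test compares 1 library with another rather than a condition with another.

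D cyclins bind CDK4 and CDK6, and the active kinases phosphorylate the retinoblastoma protein, which frees E2F factors to switch on genes for DNA synthesis. INK4 proteins block CDK4 and CDK6 themselves, while Cip/Kip proteins bind complexes of cyclin and kinase, with p57 known for holding developing tissues out of the cell cycle. N-MYC is a growth-promoting factor of the embryonic myocardium that can raise D cyclin transcription. The AVC and OFT carry the endocardial cushions, in which endocardial cells become mesenchyme and go on dividing, while the chamber walls are mostly myocardium.

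In Tag-seq, NlaIII cuts the cDNA at its CATG sites and the 17 bases that follow are counted, so a transcript with several sites can give several tag types. The tags on which the results below turn are shown first, since for most of these genes 1 to 6 tag types carried nearly all counts. Each is written 5′ to 3′ with the NlaIII site in capitals, in mouse build GRCm38, by a match to GENCODE M21 transcripts. NlaIII sites are numbered from the 3′ end of the transcript, with site 1 the last before the poly(A) tail.
Ccnd2 site 1, 3′ UTR (exon 5 of 5), chr6:127125576-127125596, minus strand: CATGtacctcagatctatcag
Ccnd2 site 3, 3′ UTR (exon 5 of 5), chr6:127125950-127125970, minus strand: CATGcgctactccgattttaa
Ccnd2 site 15, 3′ UTR (exon 5 of 5), chr6:127129531-127129551, minus strand: CATGaccaaaacgcatctaaa
Ccnd2 site 23, coding sequence (exon 4 of 5), chr6:127139218-127139238, minus strand: CATGtacccgccgtcgatgat
Ccnd1 site 1, 3′ UTR (exon 5 of 5), chr7:144929969-144929989, minus strand: CATGgtccaggaaaaaaaaaa
Ccnd1 site 11, 3′ UTR (exon 5 of 5), chr7:144930726-144930746, minus strand: CATGttcaagttttaatttcc
Ccnd3 site 1, 3′ UTR (exon 7 of 7), chr17:47599659-47599679, plus strand: CATGctgccttaataaagatt
Cdk4 site 1, coding sequence (exon 5 of 8), chr10:127065220-127065240, plus strand: CATGtggagcgttggctgtat
Cdk6 site 1, 3′ UTR (exon 8 of 8), chr5:3530691-3530711, plus strand: CATGggacttccctagagaga
Cdkn1c site 1, 3′ UTR (exon 4 of 4), chr7:143458620-143458640, minus strand: CATGcgtggatccctctgcca
Cdkn1c site 3, 3′ UTR (exon 4 of 4), chr7:143458822-143458842, minus strand: CATGtgcaaggagtacgctgg
Mycn site 1, 3′ UTR (exon 3 of 3), chr12:12936109-12936129, minus strand: CATGtttatgaaaataaatag

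The libraries held between 4223810 and 12977237 tags, and 70.7 to 74.6% of these matched the sense strand of 1 gene. Levels are given in TPM, tags per 1000000 tags of the library. The files list only tag types with more than 5 tags, so the smallest listed level is 0.462 TPM in the Twist1 null AVC and 1.42 TPM in the ventricles. Haemoglobin genes took 21.5% of the tags of the atria, 4.67% in the ventricles, 2.73% in the Twist1 null AVC, 0.242% in the AVC and 0.307% in the OFT. Tags whose 17 bases begin with T made up 16.4% of gene tags in the OFT, 15.4% in the AVC, 24.6% in the ventricles, 34.9% in the atria and 34.6% in the Twist1 null AVC. Against the summed atria and ventricles, all genes had a median log2 ratio of 1.23 (AVC) and 1.07 (OFT). Scaling by TMM shifts the log2 ratios by -0.95 in the first of these, by -0.85 in the second and by 0.24 between the Twist1 null and wild-type AVC, so it is said below where TMM normalization changes a call. Twist1 itself was at 299 TPM in the OFT, 918 in the AVC, 55.9 in the ventricles, 63.4 in the atria and 4.55 in the Twist1 null AVC. Of the region markers, Myl2 was at 6196 TPM in the ventricles against 55.5 in the atria, Isl1 at 72.9 in the OFT against at most 3.08 elsewhere, and Bmp2 at 220 in the AVC. Nppa, a gene of the atrial chamber, was at 18.2 TPM in the atria and thus below its 29.8 in the ventricles and 316 in the AVC.

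**Figure D1:**
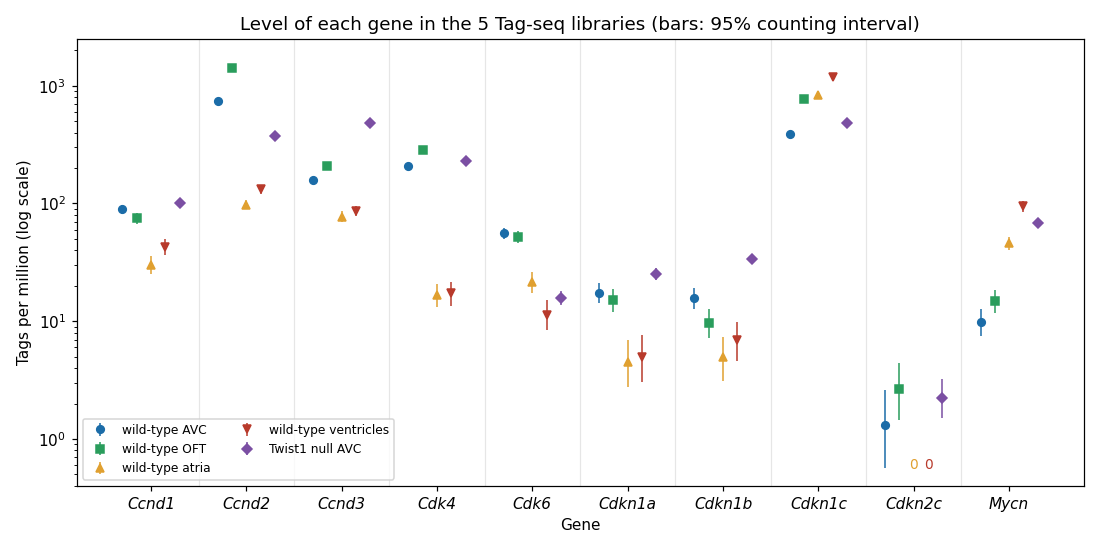
Level of each of the 10 genes (TPM, log scale) in the 5 libraries, with the exact Poisson 95% interval of the count as a bar, and 0 marking a gene that was not listed. Ccnd2 and Cdk4 sit higher in the AVC and OFT than in the atria and ventricles, Mycn sits lower, and Ccnd3 is at its highest, 479 TPM, in the Twist1 null AVC.

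Ccnd2 and Cdk4 were higher in both cushion-bearing regions than in the chambers, and Mycn was lower in both, under either scaling. Of the 10 members, 5 were called higher and 1 lower in the AVC than in the summed atria and ventricles. The test was the exact test of edgeR, two-sided and at a preset dispersion of 0.12, and a call means an unadjusted p under 0.05. Over all 12506 genes tested, 43.4% were called higher and 8.12% lower, so that the count of 5 higher is close to the share of all genes. With TMM normalization 3 members were called higher and 2 lower, against 25.7% and 17.5% of all genes. In the OFT 5 members were called higher and 1 lower, against 40.6% and 8.88% of all genes, and with TMM normalization 3 were called higher and 1 lower, against 26.2% and 17.7%. The median log2 ratio of the members was 1.58 (AVC) and 1.50 (OFT), or 1.36 and 1.30 with Cdkn2c at its lower bound. Over all genes the medians were 1.23 and 1.07, or 0.75 and 0.66 with 5 tags in place of each missing tag type. Both comparisons use the same atria and ventricles libraries as the control. In these bulk libraries fewer cells of a type and less RNA per cell cannot be told apart.

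Cyclin D2 was the D cyclin with the most tags in each of the wild-type libraries. Ccnd2 was at 743 TPM in the AVC (95% counting interval 721 to 765), 1407 in the OFT (1375 to 1439), 97.7 in the atria (89.0 to 107), 132 in the ventricles (121 to 144) and 373 in the Twist1 null AVC (363 to 384). No counting interval overlaps another, and the AVC and OFT both lay above both chambers. The ratio to the chambers was 6.51 in the AVC (p = 0.000413, edgeR exact test; 0.0180 with TMM normalization) and 12.3 in the OFT (exact p = 5.29e-06; 0.000306 with TMM normalization). All 6 Ccnd2 tag types with at least 50 tags were higher in the AVC, by 1.44 times to 25.9 times where the chambers held the tag. The size of the difference thus depended on the tag. Site 23, in the coding sequence, had 1456 tags in the OFT, 831 in the AVC, 39 in the ventricles and 8 in the atria. Site 15 had 1313 tags in the OFT and 787 in the AVC and was not listed in either chamber, so that it was at least 115 times as high in the AVC, computed with 5 tags in each chamber library. Site 1, the last NlaIII site before the poly(A) tail, had 1516 tags in the OFT, 898 in the AVC, 230 in the ventricles and 144 in the atria, a ratio of 3.51 for the AVC.

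The other D cyclins differed less between the regions. Ccnd1 was at 74.6 TPM in the OFT, 89.5 in the AVC, 42.9 in the ventricles, 30.2 in the atria and 102 in the Twist1 null AVC. It lay above both chambers in the AVC and OFT, without passing the threshold in either (exact p = 0.0768 and 0.158). Ccnd3 was at 210 TPM in the OFT, 158 in the AVC, 86.4 in the ventricles, 77.4 in the atria and 479 in the Twist1 null AVC. Its ratio to the chambers was 1.93 in the AVC (exact p = 0.192) and 2.57 in the OFT (exact p = 0.0637). Under TMM the log2 ratio of the AVC was -0.0018. The atria and ventricles did not differ in Ccnd3 beyond counting error.

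Shares within 1 library do not depend on how libraries are scaled. Tag counts of different genes also depend on how many NlaIII sites were read, so each share is compared between libraries and not read as a ratio of transcripts. Ccnd2 held 83.2% of the D cyclin tags in the OFT and 75.0% in the AVC, against 50.5% in the ventricles, 47.6% in the atria and 39.1% in the Twist1 null AVC. Ccnd3 held 12.4%, 15.9%, 33.1%, 37.7% and 50.2% when the libraries are taken as OFT, AVC, ventricles, atria and Twist1 null AVC, and Ccnd1 4.41%, 9.04%, 16.4%, 14.7% and 10.7%. The summed D cyclin tags were 1691 TPM in the OFT, 990 in the AVC, 261 in the ventricles, 205 in the atria and 953 in the Twist1 null AVC. The Twist1 null AVC was thus close to the wild-type AVC in its sum and differed in the makeup. With tags of site 1 alone, Ccnd2 held 54.9% in the OFT, 44.0% in the AVC, 35.7% in the ventricles, 26.2% in the atria and 23.2% in the Twist1 null AVC. Ccnd3 then held 37.0% in the OFT, 43.8% in the AVC, 54.8% in the ventricles, 65.6% in the atria and 73.0% in the Twist1 null AVC. Both chambers stayed below the AVC and OFT in their Ccnd2 share, but in both Ccnd3 was ahead of Ccnd2, the reverse of the order over all tag types, and in the AVC the pair was nearly even.

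**Figure D2:**
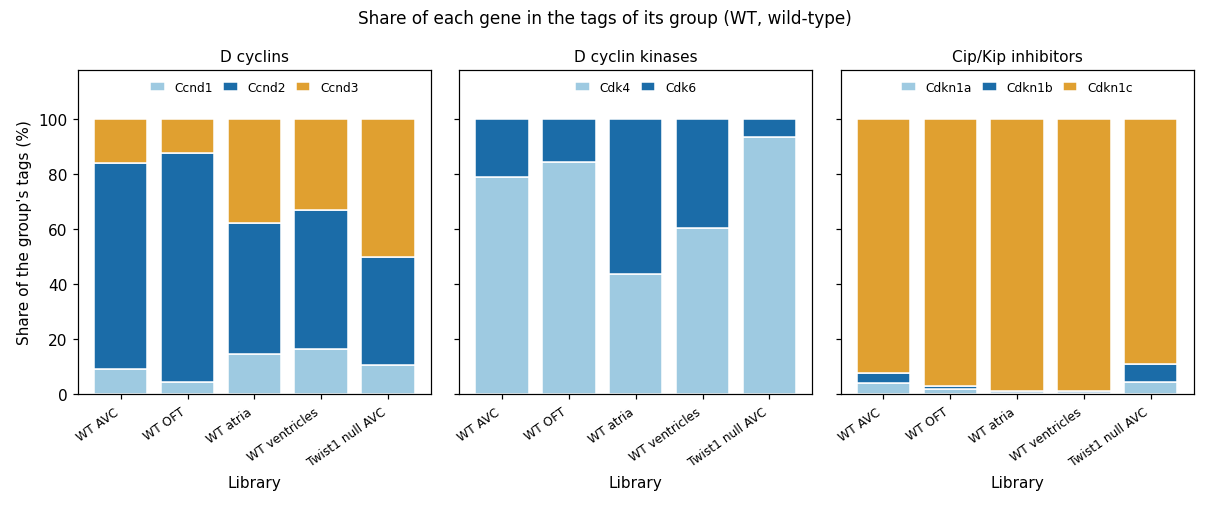
Share (%) of each gene in the summed tags of the D cyclins, of Cdk4 with Cdk6, and of the Cip/Kip inhibitors, with 1 bar for each of the 5 libraries (WT, wild-type). Ccnd2 fills 75.0 and 83.2% of the D cyclin bar in the AVC and OFT and 39.1% in the Twist1 null AVC, and Cdkn1c fills at least 89.2% of every Cip/Kip bar.

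Cdk4, the kinase partner of the D cyclins in most dividing cells, had the largest ratio to the chambers of any member found in all 5 libraries. It was at 283 TPM in the OFT, 209 in the AVC, 17.3 in the ventricles, 16.7 in the atria and 230 in the Twist1 null AVC. The atria and ventricles did not differ beyond counting error, and the other 3 libraries all lay far above them. The ratio was 12.3 for the AVC (95% counting interval 10.4 to 14.7; exact p = 6.38e-06, and 0.000547 with TMM normalization) and 16.7 for the OFT (14.1 to 19.9; exact p = 7.20e-07, and 4.70e-05). Nearly all Cdk4 counts came from site 1 in the coding sequence, with 1423 tags in the OFT, 1220 in the AVC, 73 in the ventricles, 78 in the atria and 2924 in the Twist1 null AVC. This tag begins with T after the NlaIII site, and T tags over all genes were a larger share in the chambers than in the AVC and OFT. The part of T tags in the Cdk4 result was not tested.

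Cdk6, the second cyclin D kinase, was at 51.8 TPM in the OFT, 55.6 in the AVC, 11.4 in the ventricles, 21.4 in the atria and 15.7 in the Twist1 null AVC. The AVC and OFT did not differ beyond counting error, nor did the Twist1 null AVC from the ventricles. The ratio to the chambers was 3.34 in the AVC (exact p = 0.0210) and 3.11 in the OFT (exact p = 0.0290), and neither call held with TMM normalization (p = 0.286 and 0.290). Cdk4 held 84.5% of the tags of the pair in the OFT, 79.0% in the AVC, 60.3% in the ventricles, 43.8% in the atria and 93.6% in the Twist1 null AVC. In the atria the interval of this share, 36.4 to 51.4%, includes an even split.

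Among the Cip/Kip inhibitors, Cdkn1c held between 89.2 and 99.0% of the tags. It was at 774 TPM in the OFT, 392 in the AVC, 1179 in the ventricles, 832 in the atria and 487 in the Twist1 null AVC. The AVC was lowest and the ventricles highest. The ratio of the AVC to the chambers was 0.394 and did not pass the threshold on library totals (exact p = 0.0656), while with TMM normalization it did (log2 ratio -2.30, exact p = 0.00226). In the OFT the ratio was 0.776 (exact p = 0.611). The Cdkn1c tag types did not move together. Site 1 had 2455 tags in the OFT, 1648 in the AVC, 4496 in the ventricles, 3532 in the atria and 5536 in the Twist1 null AVC, a ratio of 0.300 for the AVC. Site 3 had 1508, 688, 431, 303 and 566 tags in the same order, a ratio of 1.37 for the AVC and 3.47 for the OFT. A sum over the gene therefore averages a tag that was less frequent in the AVC with one that was more frequent.

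Cdkn1a and Cdkn1b, the inhibitors p21 and p27, were far less abundant in tags. Cdkn1a was at 15.2 TPM in the OFT, 17.4 in the AVC, 4.97 in the ventricles, 4.50 in the atria and 25.2 in the Twist1 null AVC, and rested on a single tag type in each wild-type library. It was called higher in the AVC (ratio 3.69, exact p = 0.0165) and in the OFT (ratio 3.21, exact p = 0.0353), and neither call held with TMM normalization. Cdkn1b was at 9.68 TPM in the OFT, 15.6 in the AVC, 6.87 in the ventricles, 4.93 in the atria and 33.9 in the Twist1 null AVC, and passed the threshold in no comparison. For both genes the 2 chamber libraries lay within counting error of each other.

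The INK4 inhibitor p18 was at the limit of what the files list. Cdkn2c was seen as 1 tag type, with 14 tags in the OFT, 8 in the wild-type AVC and 29 in the Twist1 null AVC (2.66, 1.32 and 2.23 TPM), and was not listed in the atria or ventricles. Given 5 tags in each chamber library, the AVC level was at least 1.17-fold higher, and for the OFT the bound was at least 2.36-fold higher. The exact test called it in both (p = 0.0168 and 0.00111), and with 5 tags in place of each missing tag type it was called in neither.

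Tags of the inhibitor Cdkn1c were also counted against those of the cyclin Ccnd2 within each library. There were 0.528 Cdkn1c tags for each Ccnd2 tag in the AVC (95% counting interval 0.503 to 0.555), 0.550 in the OFT (0.529 to 0.572), 8.51 in the atria (7.72 to 9.40), 8.93 in the ventricles (8.18 to 9.76) and 1.31 in the Twist1 null AVC (1.26 to 1.36). The AVC and OFT did not differ beyond counting error, nor did the atria and ventricles. The Twist1 null AVC lay between the pairs. With the 1-base variant tags described below added, Cdkn1c was at 496 TPM in the Twist1 null AVC and Ccnd2 at 524. Cdkn1c was then no longer ahead of Ccnd2 there. These ratios are taken within a library and carry no scaling factor.

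Mycn went the other way from Ccnd2 and Cdk4. It was at 14.8 TPM in the OFT, 9.88 in the AVC, 94.5 in the ventricles, 45.9 in the atria and 68.2 in the Twist1 null AVC. Both chambers and the Twist1 null AVC lay well above the AVC and OFT. The level in the chambers was 6.98 times that in the AVC (exact p = 0.000376; with TMM normalization 4.62e-06) and 4.66 times that in the OFT (exact p = 0.00393; 0.000103). All Mycn tags of the AVC, atria and ventricles were of site 1, with 60, 214 and 399 tags in turn, and the OFT had 71 of its 78 Mycn tags there. This tag begins with T, and the share of T tags over all genes was also higher in the atria, ventricles and Twist1 null AVC than in the AVC and OFT. Its part in the Mycn result was not tested. Without T tags no Mycn tag was left in the AVC or the chambers and 7 were left in the OFT, so that no ratio can be given without them.

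**Figure D3:**
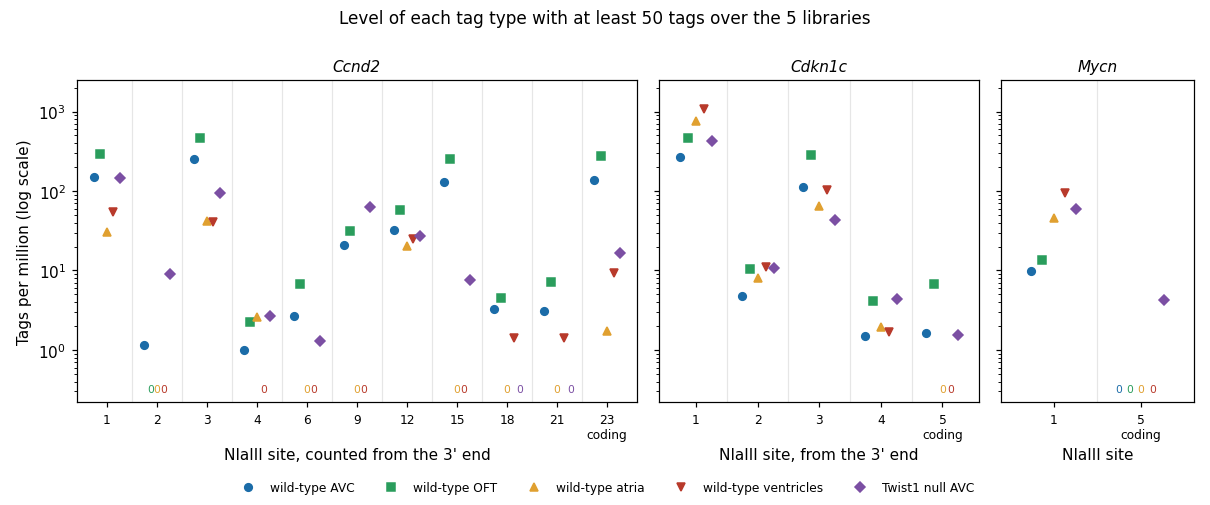
Level (TPM, log scale) of each Ccnd2, Cdkn1c and Mycn tag type with at least 50 tags over the 5 libraries, by NlaIII site counted from the 3′ end, with 0 marking a tag not listed in a library. Cdkn1c site 1 is highest in the ventricles while site 3 is highest in the OFT, and Ccnd2 site 15 is listed in neither chamber.

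Markers of other cells moved with these regions. The summed level of 8 cushion mesenchyme markers was 3160 TPM in the OFT, 2456 in the AVC, 202 in the ventricles, 218 in the atria and 463 in the Twist1 null AVC. All 8 of these markers were found in the AVC, OFT and Twist1 null AVC, 7 in the ventricles and 6 in the atria. Prrx1 was listed in neither chamber. Col3a1, at 2337 TPM in the OFT against 1439 in the AVC, and Col1a1 were higher in the OFT. The other cushion mesenchyme markers were lower in the OFT than in the AVC, such as Sox9 at 377 against 514 TPM. The summed level of 8 cardiomyocyte markers was 21323 TPM in the OFT, 20078 in the AVC, 16283 in the ventricles, 8095 in the atria and 18475 in the Twist1 null AVC. The ventricle sum was mostly Actc1, at 13856 TPM against 6283 in the AVC. Each of the other cardiomyocyte markers was lower in the ventricles than in the AVC, such as Tnnt2 at 453 against 3977 TPM. Endothelial and endocardial markers summed to between 207 TPM in the atria and 601 in the Twist1 null AVC, epicardial markers to between 89.8 in the OFT and 309 in the atria, and smooth muscle markers to between 285 in the atria and 1092 in the OFT. The sum of the erythroid markers was 3087 TPM in the OFT, 2426 in the wild-type AVC, 46733 in the ventricles, 215426 in the atria and 27379 in the Twist1 null AVC. The part of cell makeup in the differences of Ccnd2, Cdk4 and Mycn was not tested.

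Between the AVC and the OFT none of the 10 members was called by edgeR's exact test, and over all genes 5.22% were called higher and 7.36% lower in the OFT. Ccnd2 was 1.89 times as high in the OFT (exact p = 0.203) and Cdkn1c 1.97 times (exact p = 0.177), and all 8 Ccnd2 tag types with at least 50 tags over the pair were higher in the OFT. The median log2 ratio of the members was 0.42, against -0.10 over all genes. Between the ventricles and the atria none of the 9 members found was called, against 11.1% of all genes higher and 9.04% lower in the ventricles. Mycn was 2.06 times as high in the ventricles (exact p = 0.160), and Cdk6 had 0.530 times its level in the atria (exact p = 0.252). The median was 0.43 for the members and 0.31 for all genes. With no replicate these values do not show that the regions are alike.

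In the Twist1 null AVC Ccnd3 and Mycn were called higher than in the wild-type AVC and Cdk6 was called lower. The 2 higher calls and 1 lower call of 10 members stand beside 11.9% and 12.7% of all 12966 genes, and with TMM normalization the same members were called, beside 14.9% and 9.37% of all genes. Ccnd3 was 3.03 times as high (95% counting interval 2.83 to 3.25; exact p = 0.0298, adjusted 0.147). Site 1 of Ccnd3 alone went from 895 tags in the AVC to 5983 in the deeper library of the Twist1 null AVC, and the other Ccnd3 tag type with at least 50 tags was also higher. The tag of Ccnd3 site 1 begins with C. Mycn was 6.91 times as high (5.31 to 9.13; exact p = 0.000397, adjusted 0.0136) and was the only one of these calls with an adjusted p under 0.05. Mycn site 1 rose from 60 to 773 tags, and a coding tag of site 5 had 55 tags in the Twist1 null AVC and was not listed elsewhere. Both tags begin with T, as do 97.1% of the Mycn tags of this library, and T tags over all genes were 34.6% there against 15.4% in the wild-type AVC. Their part in this result was not tested.

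Cdk6 fell to 0.283 times its wild-type level in the Twist1 null AVC (0.236 to 0.337; exact p = 0.0154, adjusted 0.105). Site 1 had 245 tags in the AVC and 86 in the Twist1 null AVC, and all 3 Cdk6 tag types with at least 50 tags over the pair were lower. The partner kinase Cdk4 was at 1.10 times its wild-type level (exact p = 0.848), so that the Cdk4 share of the pair was 93.6% against 79.0%. Without T tags that share was 31.6% against 14.1%, and the part of T tags in it was not tested.

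Ccnd2 was at 0.502 times its wild-type level in the Twist1 null AVC and did not pass the threshold (exact p = 0.171). Its tag types disagreed. Of 7 with at least 50 tags, 2 were higher and 5 lower, with ratios between 0.0583 and 7.82. Site 15 had 787 tags in the AVC and 98 in the Twist1 null AVC, and site 23 had 831 and 217, while site 1 had 898 and 1902, which is 0.992 times in TPM. Site 3 had 1556 and 1231. In the Twist1 null AVC, site 3 also had 1795 tags and site 23 had 139 tags that differed by 1 base. These are described below and are left out of the counts here. Ccnd1 showed the same kind of split, with site 1 at 0.585 times, site 18 at 0.558 times and site 11 at 2.45 times its wild-type level. The tags of sites 11 and 18 begin with T. The gene ratio of Ccnd1 was 1.13 (exact p = 0.802). For Cdkn1a the ratio was 1.44, for Cdkn1b 2.17, for Cdkn1c 1.24 and for Cdkn2c 1.70, with exact p between 0.137 and 0.666. The Cdkn1b tag types disagreed as well, with site 1, a T tag, at 2.92 times and site 2 at 0.452 times. So did those of Cdkn1c, with site 1 at 1.57 times, site 2 at 2.26, site 4 at 2.91 and site 3 at 0.385. All of these Cdkn1c tags except that of site 1 begin with T. In the Twist1 null AVC 93.6% of the Cdkn1b tags and 97.9% of the Cdkn1a tags begin with T. The part of T tags here was not tested. The summed cushion mesenchyme markers stood at 463 TPM in this library against 2456 in the wild-type AVC, the erythroid markers at 27379 against 2426 and the smooth muscle markers at 1021 against 493. Of the smooth muscle markers only Acta2 was higher there, at 716 TPM against 120. Tagln was at 113 against 172 and Cnn1 at 192 against 201, and Myh11 was not listed. The part of these cell types in the differences was not tested.

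**Figure D4:**
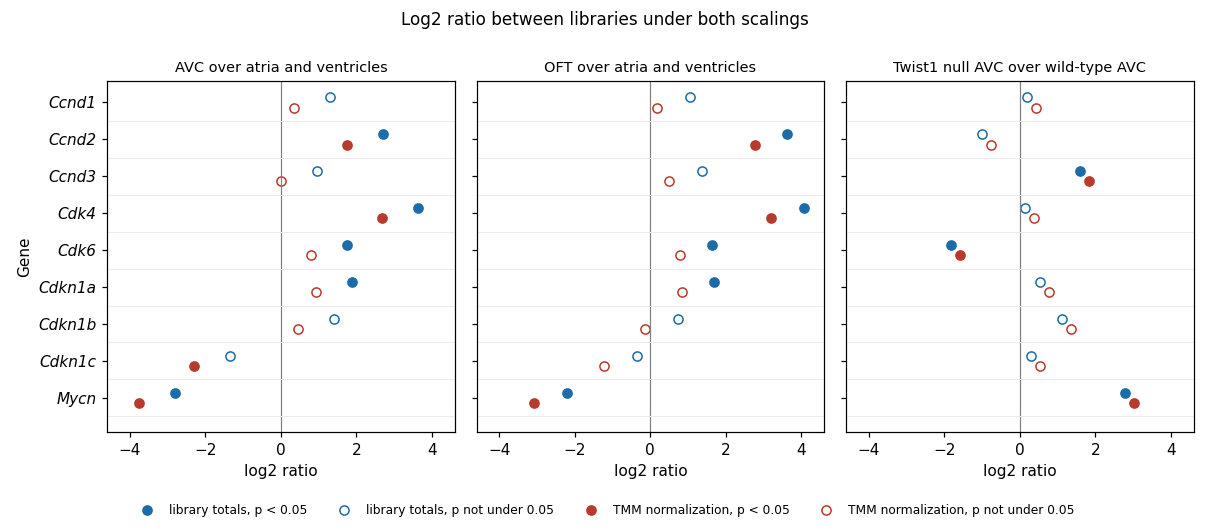
Log2 ratio of 9 members (Cdkn2c, not listed in the chambers, is left out) in 3 comparisons, on library totals and with TMM normalization, with filled points for an exact p under 0.05 and open points for the rest. TMM normalization shifts the AVC and OFT panels down by 0.95 and 0.85, after which Ccnd2 and Cdk4 stay above 0 and Mycn below it, while in the Twist1 null AVC both scalings call Ccnd3 and Mycn higher and Cdk6 lower.

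Some member tags had a companion that differed by 1 base and matched no sense transcript, with positions counted from 1 at the C of CATG and the changed base in capitals. They were not counted for any gene and are shown because 3 of them were frequent in the Twist1 null AVC alone.
Ccnd2 site 3, A15C: CATGcgctactccgCttttaa
Ccnd2 site 23, G13A: CATGtacccgccAtcgatgat
Cdk4 site 1, T19G: CATGtggagcgttggctgGat
Cdk4 site 1, A20T: CATGtggagcgttggctgtTt
The A15C tag had 22 tags in the OFT, 37 in the AVC, none listed in the ventricles, 7 in the atria and 1795 in the Twist1 null AVC. There it was 59.3% of the pair it forms with the transcript's own tag, against 2.32% in the AVC. The G13A tag, with 139 tags, and the T19G tag, with 602, were listed only in the Twist1 null AVC. The A20T tag had 350 tags in the OFT, 160 in the wild-type AVC and 7 in the ventricles and was not listed in the atria or the Twist1 null AVC. The origin of these bases was not tested, and strain and genotype cannot be told apart here. With such tags added, Ccnd2 in the Twist1 null AVC comes to 524 TPM in place of 373 and to 47.4% of the D cyclin tags in place of 39.1%, which puts it above Ccnd3 at 43.3%. The log2 ratio to the wild-type AVC becomes -0.52, and the members called stay 2 higher and 1 lower.

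Of the other genes of the pathway, 39 were listed by role and 36 were found in the AVC or chambers. In the AVC 15 were called higher and 3 lower than in the chambers, against 43.4% and 8.12% of all genes, and with TMM normalization 6 higher and 8 lower, against 25.7% and 17.5%. In the OFT 12 were higher and 2 lower, against 40.6% and 8.88% of all genes, and with TMM normalization 6 and 9, against 26.2% and 17.7%. Between the OFT and the AVC none was called by the exact test, against 5.22% and 7.36% of all genes. Between the ventricles and atria 2 of the 35 found were higher and 3 lower, against 11.1% and 9.04%. In the Twist1 null AVC 4 were higher and 3 lower than in the wild-type AVC, against 11.9% and 12.7%, and with TMM normalization 4 and 1, against 14.9% and 9.37%. The median log2 ratio of these genes in the AVC was 0.98, against 1.23 over all genes. It stayed 0.98 with Mxd1, which was not listed in the chambers, at its lower bound. The median over all genes was 0.75 with 5 tags in place of each missing tag type. These medians were not compared with missing tags filled in both.

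By role, 7 of 13 pocket proteins, E2F and DP factors were called higher in the AVC and none lower on library totals, whereas with TMM normalization 1 was higher and 3 lower. Over all genes 43.4% were called higher on library totals, and 25.7% higher and 17.5% lower with TMM normalization. The calls of single genes given from here on held with TMM normalization, except for Mxd4 and Mdm2. By adjusted p, the calls of Ccne2 and Mxd4 in the Twist1 null AVC did not pass 0.05. Nor did those of Mdm2 and Myc between the ventricles and the atria. Rb1, the retinoblastoma protein that the D cyclin kinases inactivate, was at 19.0 TPM in the OFT, 15.3 in the wild-type AVC, 5.16 in the Twist1 null AVC and 2.36 in the atria and was not listed in the ventricles. It was 12.4 times as high in the AVC as in the chambers (exact p = 6.31e-05) and 15.3 times in the OFT (exact p = 1.41e-05). Trp53, the p53 gene that drives Cdkn1a, was at 186 TPM in the OFT, 135 in the AVC, 14.9 in the ventricles and 9.64 in the atria, and the OFT ratio was 15.3 (exact p = 1.51e-06). E2f6, a repressor of the E2F family, was 5.81 times as high in the Twist1 null AVC as in the wild-type AVC (exact p = 0.000906).

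Of the other cyclins, kinases and activators, Cdk1, the kinase of entry into mitosis, was at 73.7 TPM in the OFT, 82.3 in the AVC, 969 in the ventricles, 489 in the atria and 431 in the Twist1 null AVC. The chambers were 8.71 times as high as the AVC (exact p = 6.15e-05) and 9.74 times as high as the OFT (exact p = 2.92e-05), the opposite order to Cdk4. Of its tags 82.6 to 99.9% begin with T in each library, as do 82.4 to 100% of those of Myc, while no Rb1 or Trp53 tag of the wild-type libraries does. The part of the T tags in the Cdk1 and Myc results was not tested. Mnat1, an assembly factor of the CDK-activating kinase, was 5.75 times as high in the ventricles as in the atria (exact p = 0.00164). Skp2, which marks p27 for destruction, was 5.26 times as high in the Twist1 null AVC (exact p = 0.00202), and Ccne2, a cyclin of the G1 to S step, was 3.65 times lower there (exact p = 0.0131). The other INK4 genes gave no call, and Cdkn2a and Cdkn2b were listed in none of the libraries.

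In the MYC family and its partners, Myc was at 14.0 TPM in the OFT, 5.10 in the AVC, 12.5 in the ventricles, 37.9 in the atria and 17.9 in the Twist1 null AVC. It was called lower in the AVC than in the chambers (5.07 times, exact p = 0.00342) and lower in the ventricles than in the atria (3.02 times, exact p = 0.0404). Mnt, a MAX partner that represses MYC targets, was 3.90 times lower in the OFT than in the chambers (exact p = 0.0108). Mxd1 and Mxd4, further MAX partners, were called as well. Mxd1 was listed in neither chamber and stood at 8.89 TPM in the wild-type AVC, which is at least 3.95-fold higher, and Mxd4 was 3.23 times lower in the Twist1 null AVC than in the wild-type AVC (exact p = 0.0237), a call that did not hold with TMM normalization (p = 0.0507). Mdm2, the ligase that limits p53, was 2.98 times as high in the ventricles as in the atria (exact p = 0.0416), which did not hold with TMM normalization either (p = 0.101).

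The genes most like a member were sought among 6515 genes found in all 5 libraries, as the smallest Euclidean distance of centred log2(TPM + 1) values over the 5 libraries, which is a description over 5 points. Nearest to Ccnd2 were Nsfl1c (distance 0.17), Col5a1 (0.39) and Tcim (0.40). Nsfl1c was at 387 TPM in the OFT, 216 in the AVC, 37.4 in the ventricles, 27.0 in the atria and 120 in the Twist1 null AVC. Nearest to Cdkn1c were Icam2 (0.29), Zbed4 (0.31) and Mmrn2 (0.31), of which Icam2 and Mmrn2 are endothelial genes. Summed endothelial and endocardial markers went the other way from Cdkn1c. They were at 549 TPM in the OFT, 495 in the AVC, 272 in the ventricles and 207 in the atria. Of that list, Tek and Emcn were lower in the OFT and AVC than in both chambers. Nearest to Mycn were Usmg5 (0.19), G3bp1 (0.35) and Pfdn4 (0.36). Between 85.3 and 100% of the tags of these last genes begin with T in each library, as do 91.0 to 100% of those of Mycn, while no tag of Icam2, Zbed4 or Mmrn2 does.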

How the data were processed

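The authors sequenced NlaIII tag libraries, kept reads past the Chastity filter and 21 bases of each, and deposited raw counts of tag types with more than 5 tags, without normalization. The labels name build mm9, and the files hold no coordinates. Tags were matched here with Python 3.11.15 to 33363 RefSeq-linked GENCODE M21 transcripts (GRCm38), at every NlaIII site. Tags of 1 gene alone, in sense, were summed by symbol. Matches elsewhere in the genome were not looked for. The libraries summed to 12977237 tags (Twist1 null AVC), 6075421 (AVC), 5267618 (OFT), 4666514 (atria) and 4223810 (ventricles).

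Comparisons used exactTest of edgeR 4.0.16 (R 4.3.3), two-sided, on the whole table with the dispersion of 0.12 and the p threshold of the authors' methods, and Benjamini-Hochberg adjustment over all genes. A gene missing from a library was given 5 tags for each missing tag type to compute a bound. Intervals of 95% are exact Poisson for levels, exact binomial for shares and ratios of counts, and cover counting error only, since PCR copies are not separate molecules. The test was tried on simulated counts first.

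The members and lists were chosen with earlier results of these data known. Named beside the members were Twist1, the 2 pathway genes of largest ratio in each direction among those called with at least 50 tags, and the 3 genes nearest to Ccnd2, Cdkn1c and Mycn (at least 20 TPM in 1 library). Trp53 and Myc levels stand with their calls. There were 16 alternatives listed beforehand and 1 added after seeing the data (variant tags added to members). They change scaling (TMM, DESeq2 1.42.0 size factors, totals without haemoglobin), dispersion (0.05, 0.4), adjustment, tag limits, sites, transcripts, depth, fill and control libraries.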

Additional observations from a re-analysis of the deposited data

Results flagged for a closer look

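In all, 3 tag types lie outside the gene counts because they match no transcript, yet were frequent in the Twist1 null AVC and rare or not listed in the wild-type AVC. The Ccnd2 A15C tag reached 138 TPM there, against 6.09 TPM in the wild-type AVC. The Ccnd2 G13A tag reached 10.7 TPM and the Cdk4 T19G tag 46.4 TPM, and neither was listed in any wild-type library. Strain and genotype cannot be told apart in this library, and the genome was not searched for these tags.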

How the results depend on the processing

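No paired analysis was possible because each group has 1 library and no replicate numbers. The choice of dispersion moved the calls most. In the AVC 10 members were called at a dispersion of 0.05 and 1 at 0.4, against 6 at 0.12. In the OFT 3 were called at 0.4, against 6. Between the OFT and AVC, where none was called, 2 were called at 0.05, 1 with more than 10 tags per tag type and 1 without T tags. Between the ventricles and atria, again from none, 1 was called at 0.05 and 1 without T tags. In the Twist1 null AVC 5 were called at 0.05, 0 at 0.4 and 1 by adjusted p, against 3. The other 68 counts of calls stayed within 1.5 times the main count, and the causes of these moves were not tested beyond what each setting changes by construction.

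Directions that turned were of log2 ratios under the threshold, except Mycn in the OFT, which became 6.12 without T tags, a fitted value against 0 tags in the chambers. With TMM normalization and DESeq2 size factors, Ccnd3 in the AVC became -0.0018 and -0.038, and Cdkn1b in the OFT -0.13 and -0.15. In the ventricles over the atria, TMM normalization, size factors and totals without haemoglobin gave -0.16, -0.15 and -0.12 for Ccnd3, -0.27, -0.26 and -0.23 for Cdk4, and -0.18, -0.17 and -0.14 for Cdkn1a, and without T tags Ccnd2 was at -0.067 and Ccnd3 at -0.037. Site 1 alone gave Ccnd1 0.053 in the OFT over the AVC and -0.77 in the Twist1 null AVC. Thinning gave 0.084 for Cdkn1a in the OFT over the AVC and -0.20 for Cdkn2c in the Twist1 null AVC. Without T tags, in the Twist1 null AVC, Ccnd1 was at -0.20, Cdk4 at -0.45 and Cdkn1b at -0.79.

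Over all genes, 6444 were called in the AVC (84.2% of them higher) against 5402 with TMM normalization (59.4% higher), and 6163 in the OFT (82.1%) against 5458 (59.7%). In the Twist1 null AVC 3189 were called (48.3% higher) against 3141 (61.3%). At a dispersion of 0.4 the counts were 2874, 2837 and 813, and at 0.05 the last was 5450. A gene with fewer than 6 tags of each type cannot be seen, which limits Cdkn2c most.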
